A study of Mus musculus with 12 samples.

Results

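The replication-dependent histone genes were followed in total RNA of sorted hematopoietic stem cells of mice, which give rise to every blood lineage. Members were the protein-coding genes whose RefSeq symbols carry the H1f, H2ac, H2bc, H3c or H4c names and whose raw count averaged 10 or more over the 12 libraries. Of 63 protein-coding genes with such names, 57 reached that mean, out of 27179 genes listed and 14473 tested. All mice were C57BL/6J, with 1 library from each of 3 mice per genotype. CE1, CE2 and CE3 (group CE) carried Emu-myc and lacked both Casp1 and Casp11. E1, E2 and E3 (group E) carried Emu-myc alone, C1, C2 and C3 (group C) were Casp1 -/- Casp11 -/- without the transgene, and WT2, WT3 and WT4 (group WT) were wild-type. Emu-myc is a transgene that drives Myc from an enhancer of the antibody heavy chain locus, which is most active in B lineage cells. Casp1 and Casp11 encode inflammatory caspases that act in pyroptosis, and Casp11 is listed as Casp4. Neither the age of the mice nor the gate of the sort is given in the sources used here.

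Replication-dependent histones package newly made DNA. H2A, H2B, H3 and H4 form the core of the nucleosome and H1 binds the linker DNA, and each class is encoded by many near-identical genes in clusters. Their transcripts rise in S phase and, unlike other mRNAs, usually end in a conserved stem-loop in place of a poly(A) tail. The stem-loop is bound by SLBP, and cleavage behind it depends on the U7 small nuclear RNA. The labels do not say whether RNA was selected by its tail. How fully the counts hold histone mRNAs without a tail is thus not known. Of the members, 46 lie on chromosome 13 and 10 on chromosome 3 of GRCm38.p6. H1f10, on chromosome 6, matches the names by its leading letters alone and encodes a replication-independent linker histone. It stays in the counts of 57 members and is left out of the values by class, which cover 56 genes, a choice made after the files were seen.

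The stem-loop is shown here because it is the feature that sets these mRNAs apart. The canonical histone stem-loop, with all 6 stem bases paired around a loop rich in T, was found in a GENCODE M21 transcript of 38 of the 56 genes, searched on the transcript strand. The form of the motif was widened after a first search, so the count is a description. In 18 genes no such stem-loop was found in the transcript models, many of which stop near the end of the coding part. The genes with a match held 6 distinct stem-loops, and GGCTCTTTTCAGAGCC was the form in 22 of them. The lines below give the 26 bases around the stem-loop for the most abundant H1, H2B and H4 genes and for 3 genes on which the comparisons turn, with the stem-loop in capitals.
H1f2: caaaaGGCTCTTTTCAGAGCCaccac
H2bc8: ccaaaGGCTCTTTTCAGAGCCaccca
H4c9: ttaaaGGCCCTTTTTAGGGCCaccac
H3c3: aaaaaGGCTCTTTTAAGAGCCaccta
H2ac11: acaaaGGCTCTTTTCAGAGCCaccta
H4c11: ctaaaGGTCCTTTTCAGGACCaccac
On GRCm38 these sites are chr13:23739507-23739532 on the plus strand for H1f2, chr13:23571838-23571863 on the plus strand for H2bc8, chr13:22040961-22040986 on the minus strand for H4c9, chr13:23745042-23745067 on the minus strand for H3c3, chr13:22042478-22042503 on the minus strand for H2ac11 and chr13:21735432-21735457 on the plus strand for H4c11. H1f2, H2bc8 and H2ac11 have the same 16 bases, H3c3 differs from them in the loop, and the H4 genes have other stems. In 18 genes, H1f2, H2bc8, H4c9 and H4c11 among them, a transcript model runs 100 or more bases past the stem-loop, and 9 of the 56 genes have AATAAA in the last 60 bases of a model.

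Near-identical copies limit what a gene count can mean here. Each longest transcript model was cut into windows of 50 bases, and the median member shared 47.0% of its windows with another histone gene that matches the names. In 25 of the 57 members the share was over 50%, and in 5 no window was shared. It was 8.54% in H1f2, 28.9% in H4c9, 47.0% in H3c3, 49.7% in H2bc8, 78.9% in H2ac11 and 100% in H2ac19, all of whose windows occur in another gene. How the authors' counter treated reads that fit several copies is not given in the sources used here, so the split between such genes is uncertain.

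The libraries held 24529611 to 34065910 counts, and the 56 genes without H1f10 took 0.050 to 0.074% of them. Values per library are given as CPM, that is, counts scaled to the effective library size after TMM normalization. All 9 stem cell markers, such as Kit, Hlf and Procr, were detected in each library, with summed levels of 663 to 730.1 CPM in CE, 598 to 682 in E, 593 to 655 in C and 499.9 to 594 in WT. Kit alone had 364 to 508 CPM, and Hoxb5 had 0.566 to 1.94. The 7 neutrophil markers summed to more, 7357 to 10270 CPM in CE, 6214 to 7741 in E, 8340 to 9235 in C and 6738 to 10353 in WT. Of these, Mpo had 5456 to 9054 CPM and Elane 755 to 1297, while the others reached at most 8.30. Their part in the histone values was not tested. Casp1 fell in CE against E (log2 fold change -2.78, SE 0.17, adjusted p = 7.25e-07) and in C against WT (log2 fold change -2.73, SE 0.17, adjusted p = 9.15e-07). Casp4 was not called in either, with log2 fold changes of -0.44 in CE against E and -0.54 in C against WT, but it fell over both backgrounds, C and CE against WT and E (log2 fold change -0.49, SE 0.13, adjusted p = 0.0189), and the gene counts do not show whether its reads lie outside the deleted part. Myc was not called in E against WT (log2 fold change 0.03, SE 0.10, adjusted p = 0.967) or CE against C (log2 fold change 0.17, SE 0.10, adjusted p = 0.999), and it fell over both backgrounds with caspase loss (log2 fold change -0.31, SE 0.07, adjusted p = 0.00816). Libraries C1 and C3 had a count for 22900 and 21247 genes, against 17310 to 18863 in the others. Y-linked transcripts marked all 3 C libraries with CE1 and CE2, and were near 0 in CE3 and in all E and WT libraries, so caspase loss and the sex of the mice largely coincide.

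A few genes carried most of the histone signal. Among the 52 genes with a RefSeq span of at most 1100 bases, the mean level over 12 libraries was 311 CPM per kb for H1f2, 159.7 for H4c9, 113 for H2bc8 and 66.8 for H2ac6. The next gene, H1f3, stood at 17.5 CPM per kb, the median of the 52 was 5.80 and the lowest was 1.25. The limit of 1100 bases was set after the spans were seen, since H2bc4, H2bc6, H2bc21 and H2bc22 have long spans that give no meaningful level per length. H2bc4, thus left out, averaged 1187 raw counts, above H2ac6 at 926. The longest GENCODE models exceed the spans, at 1560 against 725 bases in H1f2 and 2482 against 487 in H2ac6. In H4c9 they have 727 against 403 bases and in H2bc8 618 against 464. Which annotation the counts used is not given, so levels and ranks per kb hold for these spans only. In counts, H1f2 made up 85.4% of the H1 class, H4c9 68.8% of H4, H2ac6 48.0% of H2A and H2bc8 36.7% of H2B. The H3 class had no such leader, and its highest gene, H3c1, held 15.5% of the counts.

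**Figure D1:**
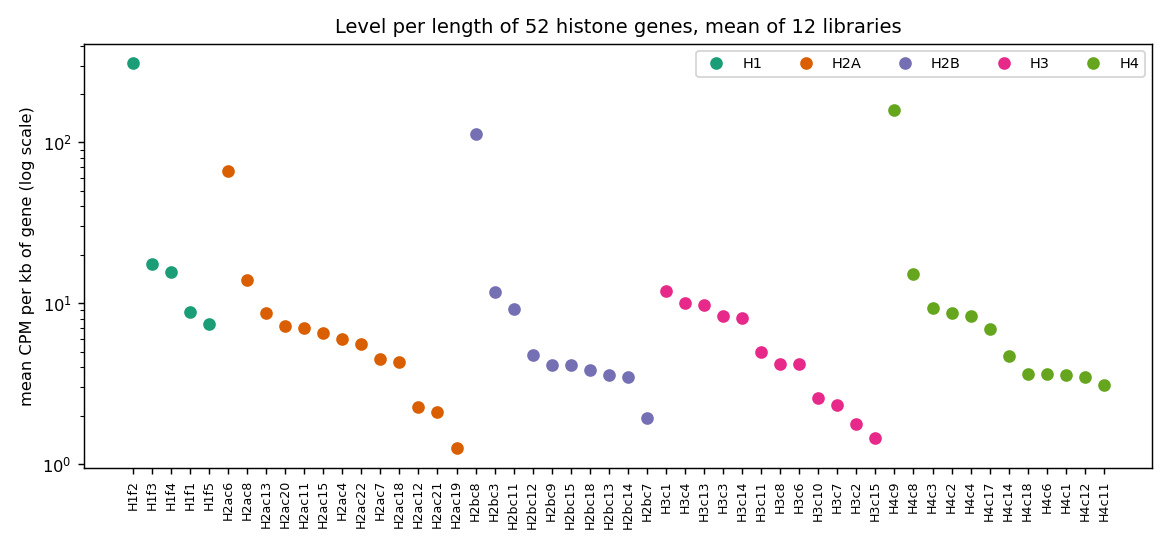
Mean level over the 12 libraries in CPM per kb of RefSeq gene span (log axis) for 52 histone genes, grouped by class. H1f2, H2ac6, H2bc8 and H4c9 lie between 66.8 and 311 CPM per kb, while no H3 gene lies above 11.9. Transcript models longer than the span would give other levels.

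H1f2 (chr13:23738807-23739531) encodes the linker histone H1.2. Its levels were 223, 162 and 179.6 CPM in CE1, CE2 and CE3, 225, 149 and 169 in the E libraries, 319.6, 254 and 219 in the C libraries, and 238, 193 and 373 in WT2, WT3 and WT4, in the order of their numbers as in all such lists. WT4 and C1 were the highest libraries and E2 the lowest, and the transgenic and other groups overlapped. H1f3, the next in the class, averaged 13.2 ± 1.57 CPM in CE, 12.5 ± 0.510 in E, 14.97 ± 1.16 in C and 13.7 ± 3.55 in WT (SD, n = 3 each). The group means of H1f3 differed by less than the SD of the WT libraries.

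H2ac6 (chr13:23683473-23683959), which encodes a canonical H2A, had 35.0, 32.0 and 28.1 CPM in CE, 38.0, 25.1 and 30.7 in E, 38.8, 32.7 and 32.0 in C and 30.7, 32.2 and 35.1 in WT. All 4 groups overlapped. H2ac8 averaged 7.87 ± 1.22 CPM in CE, 7.52 ± 0.354 in E, 7.97 ± 0.453 in C and 7.74 ± 1.67 in WT. H2bc8 (chr13:23571400-23571863), a canonical H2B gene, had 52.9, 58.1 and 41.6 CPM in CE, 53.9, 56.4 and 68.7 in E, 55.7, 50.1 and 51.5 in C and 47.1, 53.2 and 42.3 in WT. The E libraries lay above the WT libraries, with E1 only just above WT3. H2bc4 (chr13:23684199-23692480) is an H2B gene whose models include a spliced transcript. It had 42.7, 29.2 and 28.9 CPM in CE, 47.4, 26.8 and 31.2 in E, 55.7, 45.3 and 38.9 in C and 46.5, 41.3 and 71.7 in WT. As for H1f2, WT4 and C1 were highest, and the libraries numbered 1 led their groups in CE, E and C.

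H3c1 averaged 6.53 ± 0.727 CPM in CE, 5.25 ± 0.747 in E, 5.78 ± 0.728 in C and 6.35 ± 1.002 in WT, and H3c14 averaged 4.84 ± 1.73, 6.54 ± 2.06, 4.38 ± 0.354 and 5.59 ± 2.06 CPM in CE, E, C and WT. Both encode canonical H3, and H3c14 had the largest spread between libraries of a group among the members. H4c9 (chr13:22040960-22041362), the leading H4 gene, had 64.0, 58.7 and 53.0 CPM in CE, 75.2, 60.5 and 60.2 in E, 56.4, 66.9 and 60.9 in C and 78.8, 59.6 and 78.2 in WT. CE3 was lowest and WT2 and WT4 highest, and the groups overlapped. H4c8 averaged 6.92 ± 0.956 CPM in CE, 6.71 ± 0.738 in E, 5.75 ± 0.633 in C and 6.90 ± 2.44 in WT.

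At the other end, the members with the lowest mean raw counts were H2ac19 at 21.25, H2bc7 at 24.7, H3c2 at 25.2, H3c15 at 26.5 and H2ac21 at 28.0. The 6 genes below the threshold, H2ac1, H2ac10, H2ac23, H2ac24, H2bc1 and H2bc23, had means of at most 0.833 counts, so no gene lay near the limit of 10. H2ac1 and H2bc1 are known as testis histone genes. All 57 members passed the filter on low counts.

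Summed by class, the histone genes gave no pair of groups that did not overlap. The 5 H1 genes summed to 266, 194 and 219.7 CPM in CE and 264, 179 and 204 in E, against 361, 297 and 258 in C and 279.7, 222 and 416 in WT. The transgenic libraries thus lay low in H1, with E1 and CE1 inside the range of the others. The H2B sums were 147, 135 and 117 CPM in CE, 156, 131 and 149 in E, 156, 149 and 143 in C and 142, 144 and 161 in WT. The H4 sums were 96.1, 87.1 and 81.2 CPM in CE, 110.0, 91.3 and 93.6 in E, 79.7, 94.5 and 87.4 in C and 114, 80.2 and 107 in WT. H2A sums ran from 57.6 to 78.5 CPM and H3 sums from 33.9 to 45.2 CPM over the 12 libraries.

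**Figure D2:**
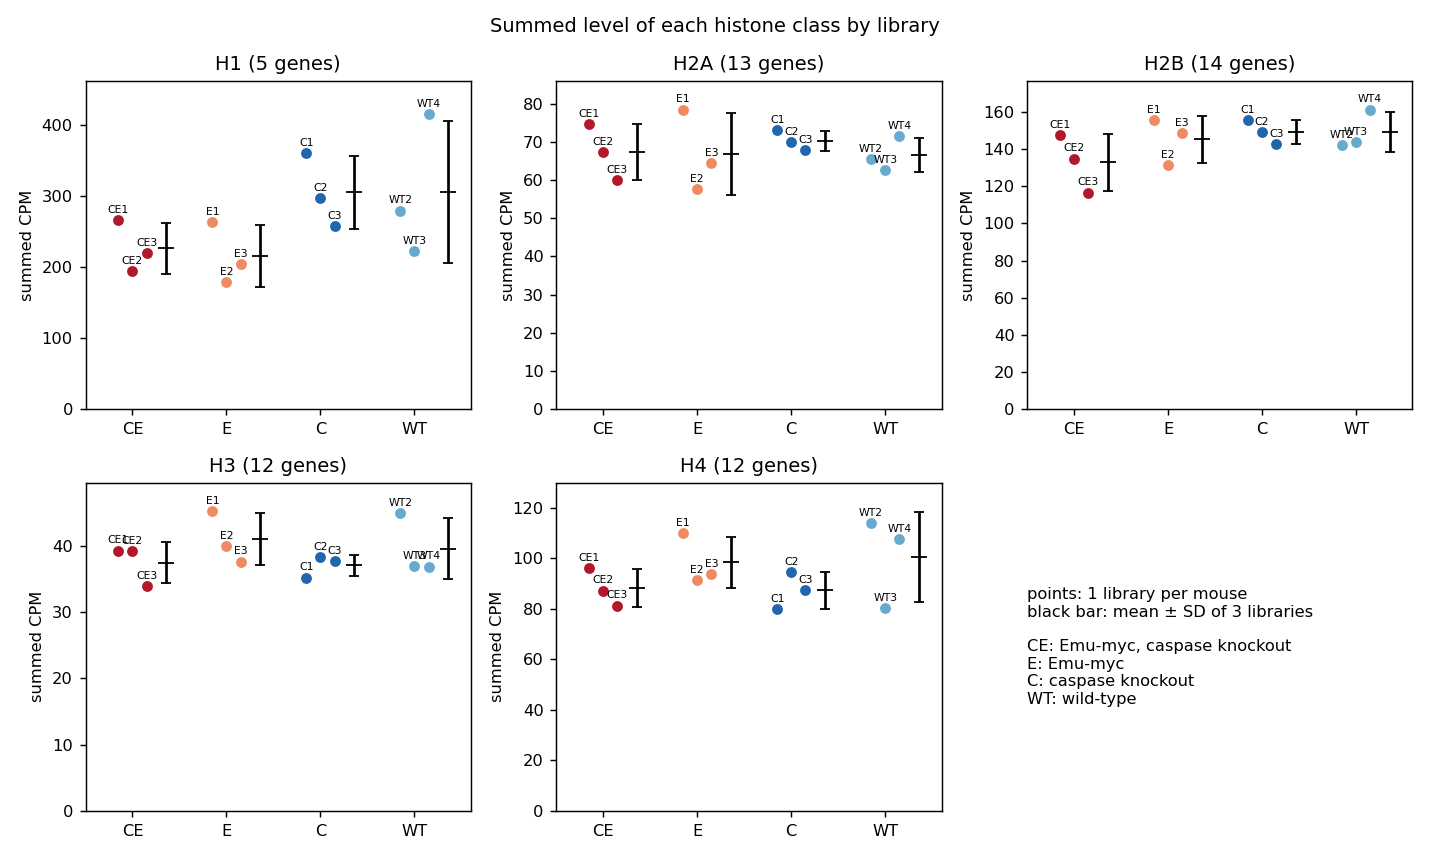
Summed CPM of each histone class in every library, with the mean and SD of 3 libraries per group as black bars. The H1 sums of CE and E lie between 179 and 266 CPM and those of C and WT between 222 and 416, and every class overlaps between groups.

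Leaving out the leading gene moved some ratios of the class sums. The log2 ratio of mean H1 sums was -0.50 for E over WT and -0.43 for CE over C, and without H1f2 it was -0.11 and -0.094. For H4 the log2 ratio was -0.03 for E over WT and 0.02 for CE over C, and without H4c9 it was 0.22 and 0.20. For H2B, E over WT gave -0.04, and -0.25 without H2bc8. These are descriptions with no test.

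Single genes were tested in 1 fit of all 12 libraries with edgeR's quasi-likelihood F test, two-sided, with Benjamini-Hochberg adjustment over all 14473 genes tested, and a gene was called at an adjusted p under 0.05. Comparisons with WT share the WT libraries, and comparisons with C or E share those, so their values are given side by side. The mice of a genotype are separate animals. The spread within groups was wider for the members than for genes at large, with a median SD of 0.26 on log2 CPM for the 57 members against 0.18 for the 14473 genes. E1 was the highest library for 14 of the 57 members and WT3 the lowest for 14.

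The transgene with caspases intact, E against WT, gave no called histone gene, against a background of 0.0829% of all genes. At an unadjusted p under 0.05 stood 4 members, or 7.02%, against 6.58% of all genes. By class the median log2 fold change was -0.25 for H1, 0.03 for H2A, 0.09 for H2B, 0.16 for H3 and 0.24 for H4, and over the 57 members it was 0.11, against -0.00 for all genes. H1f2 averaged 181 ± 39.4 CPM in E and 268 ± 93.7 in WT (SD, n = 3 each; log2 fold change -0.57, SE 0.22, adjusted p = 0.709). H2bc4 averaged 35.1 ± 10.9 CPM in E and 53.2 ± 16.3 in WT (log2 fold change -0.60, SE 0.24, adjusted p = 0.720). Both genes overlapped between the groups, and WT4 stood above the other WT libraries. H2bc8 averaged 59.7 ± 7.93 CPM in E and 47.6 ± 5.48 in WT (log2 fold change 0.33, SE 0.13, adjusted p = 0.720). H2ac12, a low H2A gene, had 1.67, 1.297 and 1.07 CPM in E and 0.877, 0.778 and 0.996 in WT (log2 fold change 0.61, SE 0.27, adjusted p = 0.747). H2bc8 and H2ac12 were 2 of the 4 members whose groups did not overlap, which is 7.02% of members against 8.02% of all genes. For 49 of the 57 members the 95% interval of the fold change lay within 2-fold in either direction. Without the low-count filter H1f2 and H2bc4 were called lower, and over 15 alternatives the adjusted p was 0.00378 to 0.997 for H1f2 and 0.00484 to 0.997 for H2bc4.

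On the caspase knockout background, CE against C, no histone gene was called either, against 0.207% of all genes. Unadjusted p was under 0.05 for 4 members, or 7.02%, against 5.14% of all genes. Class medians were -0.12 for H1, -0.10 for H2A, -0.04 for H2B, -0.01 for H3 and 0.17 for H4 on the log2 scale. H1f2 averaged 188 ± 31.4 CPM in CE and 264 ± 51.0 in C (log2 fold change -0.49, SE 0.22, adjusted p = 0.921). H4c1 had 2.49, 1.43 and 2.40 CPM in CE and 1.35, 1.55 and 1.29 in C (log2 fold change 0.59, SE 0.25, adjusted p = 0.883). These H4c1 values overlap, with CE1 and CE3 above and CE2 among the C libraries. H4c11 had 1.28, 1.43 and 1.15 CPM in CE and 0.760, 0.835 and 0.675 in C (log2 fold change 0.76, SE 0.34, adjusted p = 0.926). H3c10 had 1.07, 0.849 and 0.953 CPM in CE and 1.17, 1.31 and 1.83 in C (log2 fold change -0.59, SE 0.27, adjusted p = 0.961). H4c11 and H3c10 were 2 of the 7 members whose groups did not overlap, which is 12.3% of members against 14.9% of all genes. The interval lay within 2-fold for 52 of 57 members.

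**Figure D3:**
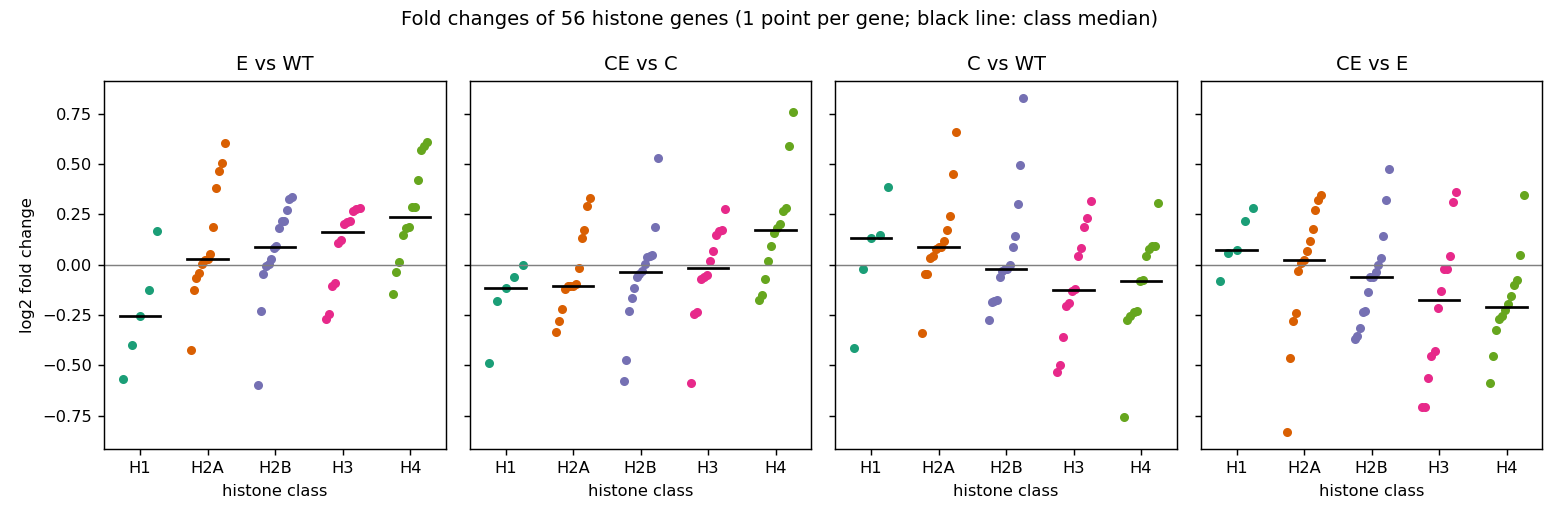
Log2 fold change of 56 histone genes by class for the transgene (E vs WT, CE vs C) and for caspase loss (C vs WT, CE vs E), with 1 point per gene and a black line at the class median. The class medians lie between -0.25 and 0.24, and none of the plotted genes was called.

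The difference between the transgene effects, CE minus C less E minus WT, gave no call among the 57 members and none among all 14473 genes, a background of 0%. At an unadjusted p under 0.05 stood 1 member, or 1.75%, against 2.11% of all genes. That gene, H2ac12, had 1.18, 1.16 and 0.985 CPM in CE and 1.62, 1.37 and 1.19 in C beside its E and WT values above (difference of log2 fold changes -0.94, SE 0.38, adjusted p = 0.9997). In H3c10, H2ac18 and H2bc8 the differences were -0.80, -0.69 and -0.37, with SEs of 0.38, 0.33 and 0.19 and the same adjusted p. The interval lay within 2-fold for 36 of 57 members, so differences of that size were not excluded for the others.

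Caspase loss without the transgene, C against WT, gave no called member, against 0.656% of all genes. Unadjusted p was under 0.05 for 6 members, or 10.5%, against 23.2% of all genes. H2bc15, an H2B gene, had 2.42, 3.25 and 2.47 CPM in C and 1.72, 1.35 and 1.52 in WT (log2 fold change 0.83, SE 0.29, adjusted p = 0.109). H2ac12 had 1.62, 1.37 and 1.19 CPM in C against the WT values above (log2 fold change 0.66, SE 0.27, adjusted p = 0.162). Neither gene overlapped between the groups, and each shares most of its windows with other copies, 86.4% in H2bc15 and 90.7% in H2ac12. H1f4, which encodes a linker histone, had 13.7, 14.0 and 12.6 CPM in C and 11.7, 8.38 and 10.8 in WT, again without overlap (log2 fold change 0.39, SE 0.16, adjusted p = 0.176). H3c3 averaged 3.40 ± 0.282 CPM in C and 4.79 ± 1.58 in WT (log2 fold change -0.50, SE 0.22, adjusted p = 0.185), and it was called without WT4, over a range of adjusted p from 0.0329 to 0.821 in 16 alternatives. In all, 9 members did not overlap, or 15.8%, against 26.3% of all genes. The interval lay within 2-fold for 52 members.

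With the transgene, CE against E, no member was called, against 1.58% of all genes. Unadjusted p was under 0.05 for 3 members, or 5.26%, against 22.6% of all genes. H3c8, an H3 gene, had 1.31, 1.80 and 1.68 CPM in CE and 2.46, 2.88 and 2.49 in E (log2 fold change -0.71, SE 0.25, adjusted p = 0.118). H2ac21 had 0.968, 0.578 and 0.723 CPM in CE and 1.79, 1.01 and 1.26 in E (log2 fold change -0.83, SE 0.31, adjusted p = 0.140). H2ac21 is one of the members with the fewest reads, given above. H2ac11 averaged 2.74 ± 0.131 CPM in CE and 3.79 ± 0.768 in E (log2 fold change -0.46, SE 0.19, adjusted p = 0.161). H3c15 had 0.692, 0.917 and 0.558 CPM in CE and 1.25, 1.075 and 1.23 in E (log2 fold change -0.71, SE 0.34, adjusted p = 0.228). All 4 were among the 12 members that did not overlap, of which 11 were lower in CE. That is 21.1% of members, against 29.9% of all genes, of which 15.1% were lower. Class medians were 0.08 for H1, 0.02 for H2A, -0.06 for H2B, -0.17 for H3 and -0.21 for H4 on the log2 scale.

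Over both backgrounds, the 6 caspase-deficient libraries (C and CE) against the 6 with caspases intact (WT and E), H3c3 and H2ac11 fell, the 2 calls among the 57 members. They make 3.51% of members, against 21.0% of all genes called and 11.8% called lower. At an unadjusted p under 0.05 stood 9 members, or 15.8%, against 35.3% of all genes. H3c3 (chr13:23745042-23745521), one of the genes for canonical H3, had 2.97, 3.19 and 3.68 CPM in CE and 3.08, 3.52 and 3.599 in C, against 4.71, 4.84 and 3.95 in E and 6.47, 4.56 and 3.34 in WT (log2 fold change -0.48, SE 0.15, adjusted p = 0.0407). All 6 caspase-deficient libraries lay below the median of the others, 4.64 CPM, but WT4 lay among them. H2ac11 (chr13:22042478-22042949), a canonical H2A gene, had 2.66, 2.89 and 2.66 CPM in CE and 3.01, 3.13 and 2.70 in C, against 4.67, 3.26 and 3.44 in E and 4.06, 3.35 and 3.77 in WT (log2 fold change -0.40, SE 0.13, adjusted p = 0.0440). It was the only member whose caspase-deficient and caspase-intact libraries did not overlap, 1.75% of members against 8.08% of all genes. H4c11 had 1.28, 1.43 and 1.15 CPM in CE and 0.760, 0.835 and 0.675 in C, against 1.83, 2.06 and 1.90 in E and 2.12, 0.845 and 0.866 in WT (log2 fold change -0.67, SE 0.23, adjusted p = 0.0552). H2bc6 had 3.53, 2.65 and 3.35 CPM in CE and 3.25, 2.80 and 3.21 in C, against 3.21, 2.53 and 1.90 in E and 2.48, 2.03 and 2.04 in WT (log2 fold change 0.41, SE 0.15, adjusted p = 0.0730). Class medians were 0.10 for H1, 0.10 for H2A, -0.04 for H2B, -0.17 for H3 and -0.11 for H4 on the log2 scale. In H2A, 11 of 13 genes had a fold change above 0, so H2ac11 differed in sign from most of its class. In H3 it was 5 of 12 genes, and in H4 1 of 12.

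H3c3 was called in 10 of 21 alternatives and H2ac11 in 8, and the log2 fold change of both was below 0 in all 21, at -0.57 to -0.27 for H3c3 and -0.45 to -0.28 for H2ac11. With a covariate for Y-linked transcripts neither gene was called, and the background fell with them to 2 genes of 14473. Without C1 and C3 neither was called and the background was 20 of 15018 genes. No member was called without WT2, C1, C2, C3, CE1 or CE2, where 10.8 to 15.6% of all genes were called. Without WT3, 5 members were called, all lower, against 19.1% of all genes. Without WT4 it was 4, all lower, against 31.3% of all genes. Without E3 the calls were H3c3 and H2ac11, both lower, against 17.2% of all genes. A single member was called without E1 (H2bc6, higher), without E2 (H2ac11, lower) and without CE3 (H3c3, lower). In those fits 12.1%, 17.9% and 18.0% of all genes were called, in that order. With trends on transcript length and GC content removed, H1f1, H1f4, H2bc6 and H3c7 were called higher instead, against 11.3% of all genes. Over the 21 alternatives the adjusted p was 0.00536 to 0.664 for H3c3 and 0.0408 to 0.396 for H2ac11. Caspase loss and sex cannot be told apart in most of these libraries.

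Over both backgrounds, the 6 transgenic libraries (E and CE) against the 6 without the transgene (WT and C), no member was called, against 0.539% of all genes. Unadjusted p was under 0.05 for 4 members, or 7.02%, against 8.98% of all genes, and no member's groups failed to overlap, against 0.746% of all genes. H1f2 averaged 184 ± 32.1 CPM with the transgene and 266 ± 67.5 without (SD, n = 6 each; log2 fold change -0.53, SE 0.16, adjusted p = 0.215). H2bc4 averaged 34.4 ± 8.53 CPM with it and 49.9 ± 12.1 without (log2 fold change -0.54, SE 0.17, adjusted p = 0.269). Both were called lower without the low-count filter, and over 21 alternatives the adjusted p was 2.63e-05 to 0.957 for H1f2 and 8.71e-05 to 0.957 for H2bc4. H4c11 and H4c1 had log2 fold changes of 0.68 (SE 0.23, adjusted p = 0.359) and 0.44 (SE 0.18, adjusted p = 0.472). H4c11 was called higher without WT2. By class, 4 of 5 H1 genes had a fold change below 0 and 10 of 12 H4 genes one above 0, with medians of -0.19 and 0.19. The interval lay within 2-fold for 56 of 57 members.

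**Figure D4:**
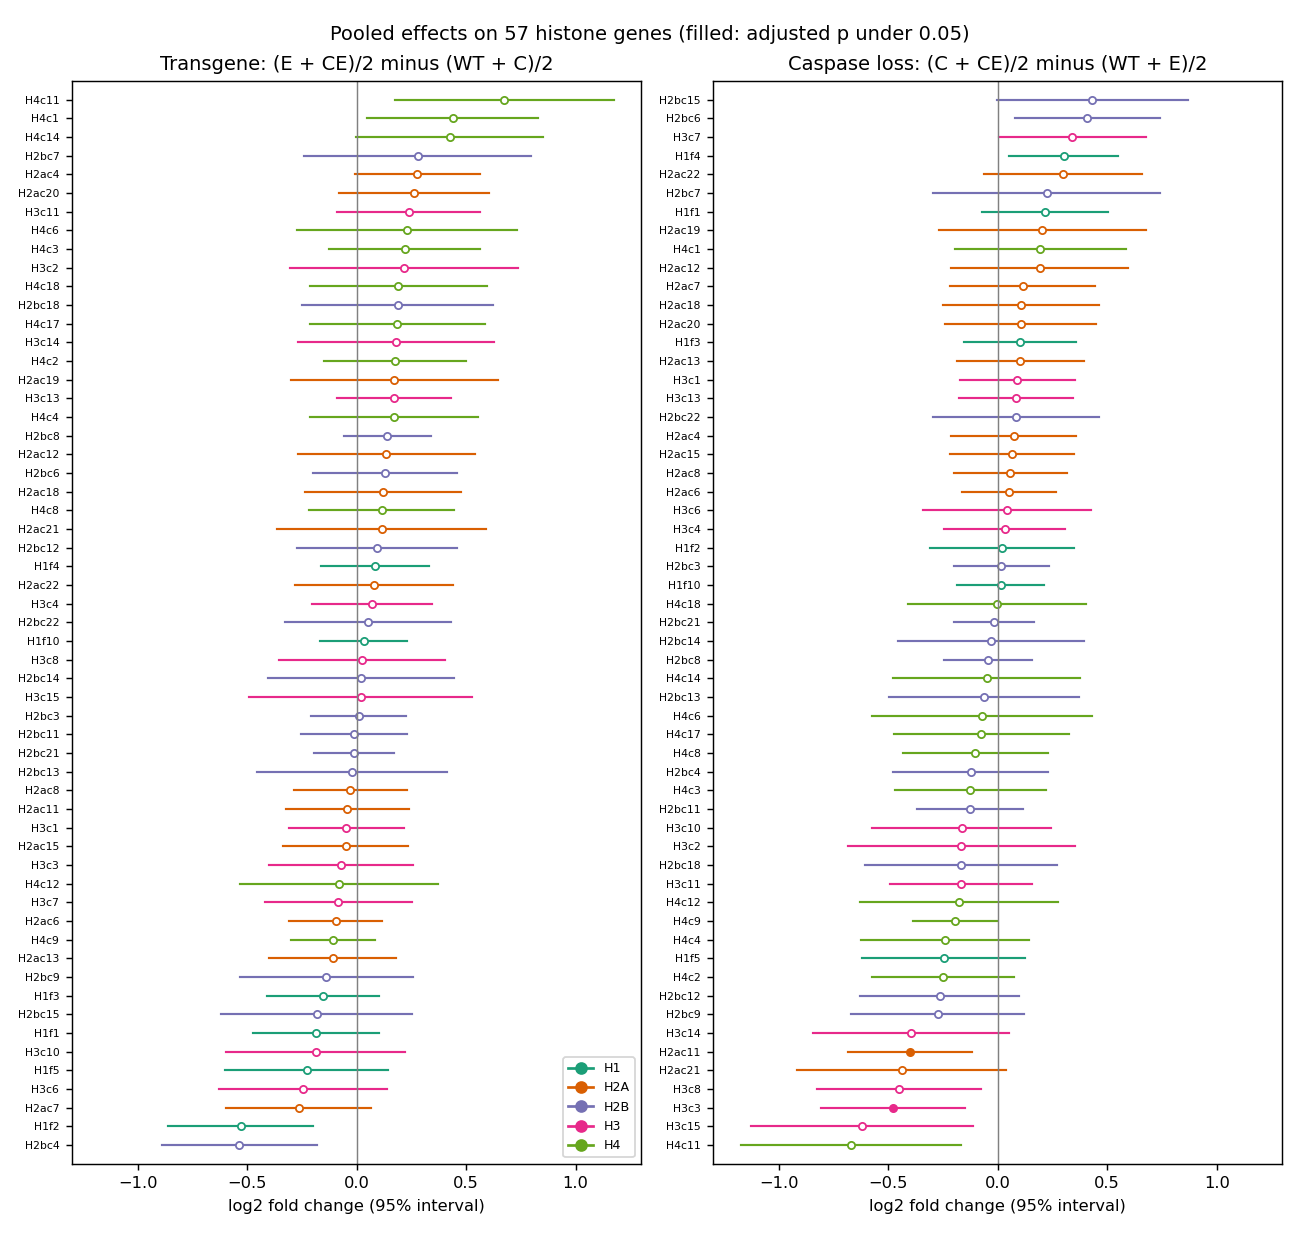
Log2 fold change and 95% interval of 57 histone genes for the transgene (left, 6 transgenic against 6 other libraries) and for caspase loss (right, 6 caspase-deficient against 6 other libraries), with filled points at an adjusted p under 0.05. The only filled points are H3c3 at -0.48 and H2ac11 at -0.40 under caspase loss.

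The summed level of B cell markers was lower in all 6 transgenic libraries. All 7 markers, such as Cd79b, Vpreb3 and Pax5, were detected in each library, and they summed to 59.8 to 68.3 CPM in CE and 60.2 to 69.5 in E, against 131 to 192 in C and 83.3 to 144 in WT. The 7 erythroid markers in the file, of which Hbb-bs had no count in 1 library, summed to 58.7 to 84.5 CPM in CE and 66.1 to 186 in E, against 124 to 149 in C and 119 to 301 in WT. Their part in the histone values was not tested. In such bulk samples, fewer cells of a type and less RNA per cell cannot be told apart.

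The genes H2aw, H2bu2 and H4f16 carry older Hist3h2a, Hist3h2ba and Hist4h4 names among their synonyms but not the symbols above, so they were set apart from the 57. H2aw (chr11:58954685-58955192), an H2A gene away from the main clusters, was singled out after its values were seen. It had 66.1, 52.1 and 48.0 CPM in CE and 69.9, 49.8 and 53.5 in E, against 105, 88.4 and 80.0 in C and 81.1, 85.8 and 122 in WT. All 6 transgenic libraries lay below all 6 others, and it fell over both backgrounds (log2 fold change -0.73, SE 0.12, adjusted p = 0.0118). It was not called in E against WT (log2 fold change -0.74, SE 0.17, adjusted p = 0.255) or in CE against C (log2 fold change -0.72, SE 0.17, adjusted p = 0.209). The call was lost without E3 and without C1 and C3, and over 21 alternatives the adjusted p was 1.22e-10 to 0.169. As a gene picked for this pattern, its tests are a description. H2bu2 had a pooled log2 fold change of -0.05 (SE 0.15, adjusted p = 0.959) and H4f16 one of 0.05 (SE 0.17, adjusted p = 0.962).

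**Figure D5:**
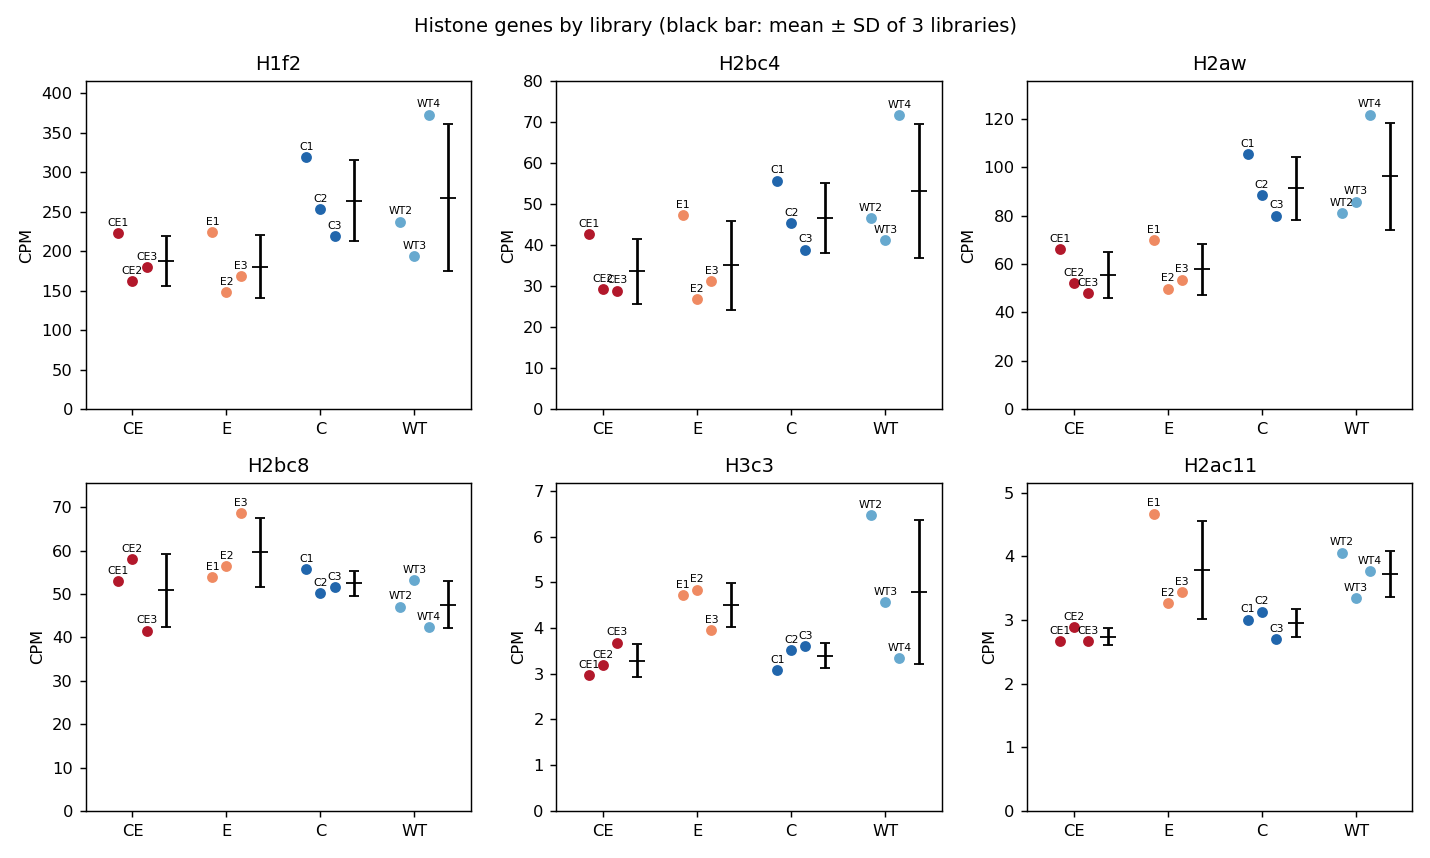
CPM per library of H1f2, H2bc4, H2aw, H2bc8, H3c3 and H2ac11, with 1 point per mouse and the mean and SD of each group as black bars. H2aw lies at 48.0 to 69.9 CPM in the 6 transgenic libraries and at 80.0 to 122 in the others, while H1f2 and H2bc4 overlap.

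Promoters were compared with those of all genes in the RefSeq table of GRCm38.p6, taking 250 bases before to 50 after each start, for 51 of the 56 genes. The letters were searched on both strands. A motif between genes that start close together on opposite strands can thus count for both, as the TATAAA shared by H2ac7 and H2bc7 does. TATAAA, the TATA box, occurred in 62.7% of the 51 promoters and in 15.7% of 27025 genes. CCAAT, bound by the factor NF-Y, occurred in 84.3% against 41.1%, and ATTTGCAT, the octamer bound by Oct1, in 21.6% against 1.97%. All H1, H2A, H2B and H3 promoters held CCAAT, but 3 of 11 H4 promoters did, and the octamer was found in H2A and H2B promoters alone. CACGTG, the letters of an E-box that Myc binds, occurred in 0 of the 51 windows, against 8.09% of all genes. Those letters were thus not in these windows, which says nothing of binding. The lines below give the windows of H1f2, the most abundant member, of H2bc8, which holds TATA box, CCAAT and octamer, and of H2ac11, which fell with caspase loss. Capitals mark the letters of these motifs on either strand.
H1f2: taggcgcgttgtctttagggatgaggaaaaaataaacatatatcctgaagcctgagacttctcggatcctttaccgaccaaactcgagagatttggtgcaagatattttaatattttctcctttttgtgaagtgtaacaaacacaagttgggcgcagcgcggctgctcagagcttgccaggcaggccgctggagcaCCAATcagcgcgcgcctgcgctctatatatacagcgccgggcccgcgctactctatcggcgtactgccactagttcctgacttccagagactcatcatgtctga
H2bc8: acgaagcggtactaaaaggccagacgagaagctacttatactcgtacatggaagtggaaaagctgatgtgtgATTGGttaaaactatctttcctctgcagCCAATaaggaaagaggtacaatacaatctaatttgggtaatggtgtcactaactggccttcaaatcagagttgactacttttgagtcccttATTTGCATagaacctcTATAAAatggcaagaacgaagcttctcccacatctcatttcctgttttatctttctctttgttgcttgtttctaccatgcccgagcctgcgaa
H2ac11: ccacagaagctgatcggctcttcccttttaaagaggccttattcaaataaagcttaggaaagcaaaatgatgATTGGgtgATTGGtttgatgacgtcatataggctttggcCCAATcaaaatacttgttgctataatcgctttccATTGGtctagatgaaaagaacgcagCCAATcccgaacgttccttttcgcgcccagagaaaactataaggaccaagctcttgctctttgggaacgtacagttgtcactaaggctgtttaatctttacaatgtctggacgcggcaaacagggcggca
They lie at chr13:23738557-23738856 on the plus strand for H1f2, chr13:23571150-23571449 on the plus strand for H2bc8 and chr13:22042900-22043199 on the minus strand for H2ac11. The H2ac11 window holds CCAAT and no TATAAA.

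Histone H2A and H2B genes often stand head to head. With starts at most 1000 bases apart on the RefSeq gene spans, 9 such pairs were found among the 13 H2A and 14 H2B members, 164 to 249 bases apart. They include H2ac6, the leading H2A gene, with H2bc4, 240 bases apart. H2ac11 and H2bc11 start 249 bases from each other, and their windows overlap. H2ac11 fell over both backgrounds with caspase loss, while H2bc11 had a log2 fold change of -0.13 (SE 0.11, adjusted p = 0.444). In E against WT, 7 of the 9 pairs had fold changes of 1 sign, and in CE against C it was 4 of 9.

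Genes that serve the histone mRNAs were followed as lists. SLBP binds the stem-loop and NPAT drives histone transcription in S phase. Slbp had 109.7, 111 and 91.5 CPM in CE and 113, 122 and 113 in C, against 142, 134 and 129 in E and 154, 129 and 111 in WT, and it fell over both backgrounds with caspase loss (log2 fold change -0.28, SE 0.08, adjusted p = 0.0272). Npat averaged 26.6 ± 5.31 CPM in CE, 28.3 ± 6.04 in E, 26.4 ± 1.996 in C and 27.4 ± 8.30 in WT and was not called (log2 fold change -0.08, SE 0.15, adjusted p = 0.750). Of the 20 tested genes for histone transcription, 3′ end processing and decay, 2 rose and 2 fell with caspase loss. Sympk, a scaffold of the cleavage complex (log2 fold change 0.28, SE 0.09, adjusted p = 0.0405), and Tut7, which adds uridines to RNA ends (log2 fold change 0.42, SE 0.12, adjusted p = 0.0231), rose. Ncbp2, a subunit of the cap-binding complex, fell with Slbp (log2 fold change -0.36, SE 0.08, adjusted p = 0.00892). The median of the list was a log2 fold change of -0.07, against 0.00 for all genes.

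Of the 13 tested genes on the list of histone variants, 4 fell and none rose with caspase loss. The list also holds H1f10, which is among the 57 members, and H2bu2 and H4f16, the genes with older names, none of them called. The genes that fell were Cenpa, the centromeric H3 (log2 fold change -0.42, SE 0.07, adjusted p = 0.00354), H2az2 (log2 fold change -0.38, SE 0.08, adjusted p = 0.00880), H2az1 (log2 fold change -0.27, SE 0.08, adjusted p = 0.0297) and H2aj (log2 fold change -0.29, SE 0.09, adjusted p = 0.0416). H2az1 and H2az2 encode H2A.Z, which marks promoters. Of 22 histone chaperones, 3 rose and 6 fell. Hat1 (log2 fold change -0.34, SE 0.07, adjusted p = 0.00868), Nasp (log2 fold change -0.41, SE 0.09, adjusted p = 0.00920) and Asf1a (log2 fold change -0.40, SE 0.09, adjusted p = 0.0104), which handle newly made H3 and H4, fell, and Cabin1, of the HIRA chaperone complex, rose (log2 fold change 0.32, SE 0.07, adjusted p = 0.0107). Of 41 S phase genes, 3 rose and 9 fell. Rpa3, of the single-strand binding complex (log2 fold change -0.56, SE 0.10, adjusted p = 0.00301), and Gins1 (log2 fold change -0.33, SE 0.08, adjusted p = 0.0133) and Rfc4 (log2 fold change -0.25, SE 0.06, adjusted p = 0.0152), of the replication fork, fell, and Mcm2, of the helicase, rose (log2 fold change 0.40, SE 0.10, adjusted p = 0.0130). The background was 21.0% of all genes called and 11.8% called lower. The counts for variants, chaperones and S phase genes lay above both shares. Whether the lists differ from the background was not tested, so the counts are not read as particular to the lists. With the covariate for Y-linked transcripts, and without C1 and C3, none of these list genes was called.

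In CE against E, Asf1a (log2 fold change -0.55, SE 0.13, adjusted p = 0.0497) and Rpa3 (log2 fold change -0.67, SE 0.13, adjusted p = 0.0398) fell, the single calls of the chaperone and S phase lists. Both calls were lost when any 1 of the 6 libraries was left out. In the other 5 comparisons none of the lists held a call. None of the 9 tested RNAs without a poly(A) tail was called in any comparison, and their summed level was 27.6 CPM in WT2, against 6.36 to 17.1 in the other 11 libraries. WT2 was the highest library for 10 of the 57 histone genes, against 14 for E1. CE3, at 17.1 CPM of these RNAs, was the highest for 1 histone gene and the lowest for 7. Mki67, a marker of cycling cells, had 261, 297 and 142 CPM in CE, 195, 379 and 247 in E, 238, 226 and 303 in C and 446, 344 and 143 in WT, and was lowest in CE3 and WT4. The part of either in the histone values was not tested.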

How the data were processed

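Total RNA of sorted hematopoietic stem cells was sequenced in 12 libraries, 1 per mouse. The authors deposited raw counts per gene, whole numbers for 27179 NCBI Gene numbers; alignment used STAR 2.5.3 and mm10, per the submitters' processing notes. The sources used here do not give the read counter, annotation, strandedness, filters or handling of multiply mapped reads, and reads that fit near-identical histone copies may be lost or split. Symbols and positions came from RefSeq (GRCm38.p6), which matched 25275 numbers, and transcripts from GENCODE M21.

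All 12 libraries entered 1 fit of group means in edgeR 4.0.16 under R 4.3.3, after filterByExpr by group and TMM scaling, and contrasts had two-sided quasi-likelihood F tests, adjusted by Benjamini-Hochberg over 14473 genes and called under 0.05. The SE of a fold change was derived from its F value. The biological coefficient of variation was 0.139, and the procedure was tested on simulated data. Depth ran from 24529611 to 34065910 counts, and low genes carry more counting error.

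Named were, per comparison, the 4 members of smallest p, per class the 2 of highest mean CPM, called list members (up to 4), Slbp, Npat, Casp1, Casp4 and Myc. The members and lists were chosen with earlier results of these data known; the stem-loop form, the promoter motifs, the length limit and the choice of H2aw followed sight of the files. Alternatives changed the scaling, filter, tool (DESeq2 1.42.0, limma 3.58.1 voom), samples or covariates. The labels do not say whether replicate numbers pair the mice, and the main fit did not pair them. Deviations of 15 same-numbered pairs correlated by -0.24 to 0.16. Other pairs were not compared, so these values cannot settle the question. The labels give no batch. From the cell marker lists 2 genes are not reported here and were left out of the sums.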

Additional observations from a re-analysis of the deposited data

How the results depend on the processing

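The 31 single-gene results were recomputed 547 times under the alternatives, and 494 values kept their direction and side of the threshold, 27 passed it, 26 lost it and 0 reversed. Most of the 31 were not called in the main fit, so most kept values are genes that stayed uncalled. The 26 losses lay in the results that were called there. Of 21 alternatives each, H3c3 kept its call in 10, H2ac11 in 8 and H2aw in 19. The counts of called genes moved more, and the cause was not tested. Histone genes called were 2 without the low-count filter in E against WT and in the pooled transgene effect, and under limma voom 1 in C against WT (higher), 1 in CE against E (lower), 4 in the pooled caspase effect (H1f4, H2bc6 and H3c7 higher, H3c3 lower) and 1 in the pooled transgene effect (higher). Without the filter, 0.888% of all genes were called in E against WT and 1.39% in the pooled transgene effect. Under voom it was 12.3% of all genes in C against WT and 9.62% in CE against E. For the pooled effects voom called 29.8% of all genes with caspase loss and 1.22% with the transgene. In the pooled caspase effect the histone genes called were 0 with the Y-linked covariate (0.0138% of all genes) and 0 without C1 and C3 (0.133%). They were 4, all higher, with length and GC trends removed (11.3% of all genes). Length and GC values were at hand for 91.4% of tested genes and all 57 members. With the replicate block they were 4, all lower, in the pooled caspase effect (30.6% of all genes). In the pooled transgene effect that setting called 2, H1f2 and H2bc4, both lower (0.801% of all genes). The labels do not say whether the numbers mark a shared origin of the mice. Leaving out 1 library in turn gave 0 to 5 calls in the pooled caspase effect, 0 to 1 in C against WT and 0 to 1 in the pooled transgene effect, and 0 in the other comparisons. These fits called 10.8 to 31.3% of all genes in the pooled caspase effect and 0.0476 to 15.2% in C against WT. For the pooled transgene effect the share was 0.242 to 0.732%.

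List calls are given next for chaperones, S phase, processing and variant genes, in that order, with the share of all genes called in parentheses. In C against WT they numbered 2, 2, 1 and 3 without the low-count filter (6.36%) and 2, 2, 1 and 3 with DESeq2 (9.93%). With voom they were 5, 4, 1 and 2, and 1 RNA without a tail (12.3%). The replicate block gave 6, 5, 2 and 2 (14.1%). In CE against E they numbered 6, 4, 2 and 2 without the filter (4.80%) and 9, 5, 2 and 1 with DESeq2 (11.2%). With voom they were 7, 5, 3 and 1 (9.62%). The compared groups alone gave 5, 4, 1 and 1 (6.07%), and the replicate block 8, 7, 3 and 1 (10.2%). With a filter of 1 CPM in 6 libraries 2 chaperones, 1 processing and 1 variant gene were called in CE against E, chaperones were at 0 with RLE factors, and chaperones and S phase genes at 0 with the Y-linked covariate or with length and GC trends removed. Of all genes, 2.42% were called with that filter, 1.43% with RLE factors, 0.0138% with the covariate and 0.221% with trends removed. In the pooled caspase effect chaperones, S phase, processing and variant genes had 0 calls with the Y-linked covariate or without C1 and C3, and 3, 4, 2 and 2 with the trends removed. In these fits 0.0138%, 0.133% and 11.3% of all genes were called, in that order. RNAs without a tail had 3 calls in E against WT and 3 in the pooled transgene effect without the filter, 1 in CE against E without the filter (2 in the pooled caspase effect) or from the compared groups alone, and 1 in the pooled caspase effect with the stricter filter, voom or trends removed. Without the filter 0.888% of all genes were called in E against WT and 1.39% in the pooled transgene effect. For the pooled caspase effect the share was 14.2% without the filter and 24.3% with the stricter one. It was 29.8% with voom and 11.3% with trends removed. Leaving out 1 library gave, in C against WT, 0 to 6 chaperones, 0 to 6 S phase, 0 to 2 processing and 0 to 4 variant genes. In the pooled caspase effect it gave 4 to 19 S phase, 1 to 5 processing and 2 to 5 variant genes and 0 to 2 RNAs without a tail. In CE against E it gave 0 chaperones and 0 S phase genes. These fits called 0.0476 to 15.2% of all genes in C against WT and 10.8 to 31.3% in the pooled caspase effect. In CE against E the share was 0.0134 to 0.215%. Whether any list differs from these shares was not tested.

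Of the class sums, 5 ratios moved by more than the spread between libraries, all without the gene with the most counts: the log2 ratio was -0.11 for H1 in E over WT, -0.094 for H1 in CE over C, -0.25 for H2B in E over WT, 0.22 for H4 in E over WT and 0.20 for H4 in CE over C. Low counts limit the small genes, with 3 libraries a group and a median SE of 0.23 to 0.24 in the single comparisons. Changes under 1.5-fold were mostly undetectable, and larger ones may be missed too. In the main fit no member was called there, not even H2bc15 at 1.78-fold in C against WT.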
